A study of Homo sapiens with 6 samples.

Results

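The genes described here encode the machinery that carries proteins between the endoplasmic reticulum (ER) and the Golgi apparatus: the COPII and COPI vesicle coats, the receptors that load and retrieve cargo, and SNARE proteins that fuse the vesicles. They are 41 genes chosen by name for these roles, with earlier results of these data known. All 41 were found, through GENCODE 29 symbols, among the 58051 Ensembl genes of the count table. RNA was sequenced from OE33, a human cell line established from an adenocarcinoma of the oesophagus, in 3 libraries of cells given 15 µM APX2009 for 24 h and 3 libraries of untreated cells. APX2009 is a small molecule that blocks the redox function of the DNA repair enzyme APE1. The series design describes the replicates as independent biological ones, and polyadenylated RNA was selected. All 6 libraries come from 1 cell line, the control was untreated cells with no vehicle named, and mRNA was measured, not protein or vesicle traffic.

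COPII vesicles form at exit sites of the ER. PREB, an exchange factor in the ER membrane, activates the small GTPase SAR1, which recruits an inner layer of SEC23 and SEC24 and an outer cage of SEC13 and SEC31; SEC24 is the subunit that picks up cargo. COPI vesicles, built from the coatomer complex, mostly travel back, and return escaped ER residents bound to KDEL receptors. Genes of this route are known to be induced when unfolded proteins load the ER, as happens in secretory cells.

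Transcripts of the listed subunits of both coats were higher after APX2009. Of the 41 genes, all of which passed the filter on low counts, 32 rose, 1 fell and 8 did not pass the test (edgeR quasi-likelihood F-test, Benjamini-Hochberg adjusted p under 0.05 over all 14773 genes tested). Among all genes tested, 17.2% rose and 17.4% fell; among the 9471 tested genes at or above the lowest of the 41 in mean log2 CPM, 20.3% rose. All 10 listed COPII coat genes, all 7 listed COPI coat genes and all 3 KDEL receptor genes rose, whereas none of the 3 ERGIC genes passed. The median log2 change of the 41 was 0.41, a 1.33-fold higher level, beside a median of 0.02 over all genes tested. Most rises were modest: 28 of the 32 were under a log2 change of 1, and the 4 at or above it, a size reached among rises by 2.94% of all genes tested, were SEC24D, TMED9, SEC13 and TMED7. In 32 genes every treated library lay above every untreated library and in 1 every treated library lay below, where 24.5% and 25.0% of all tested genes did so.

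**Figure D1:**
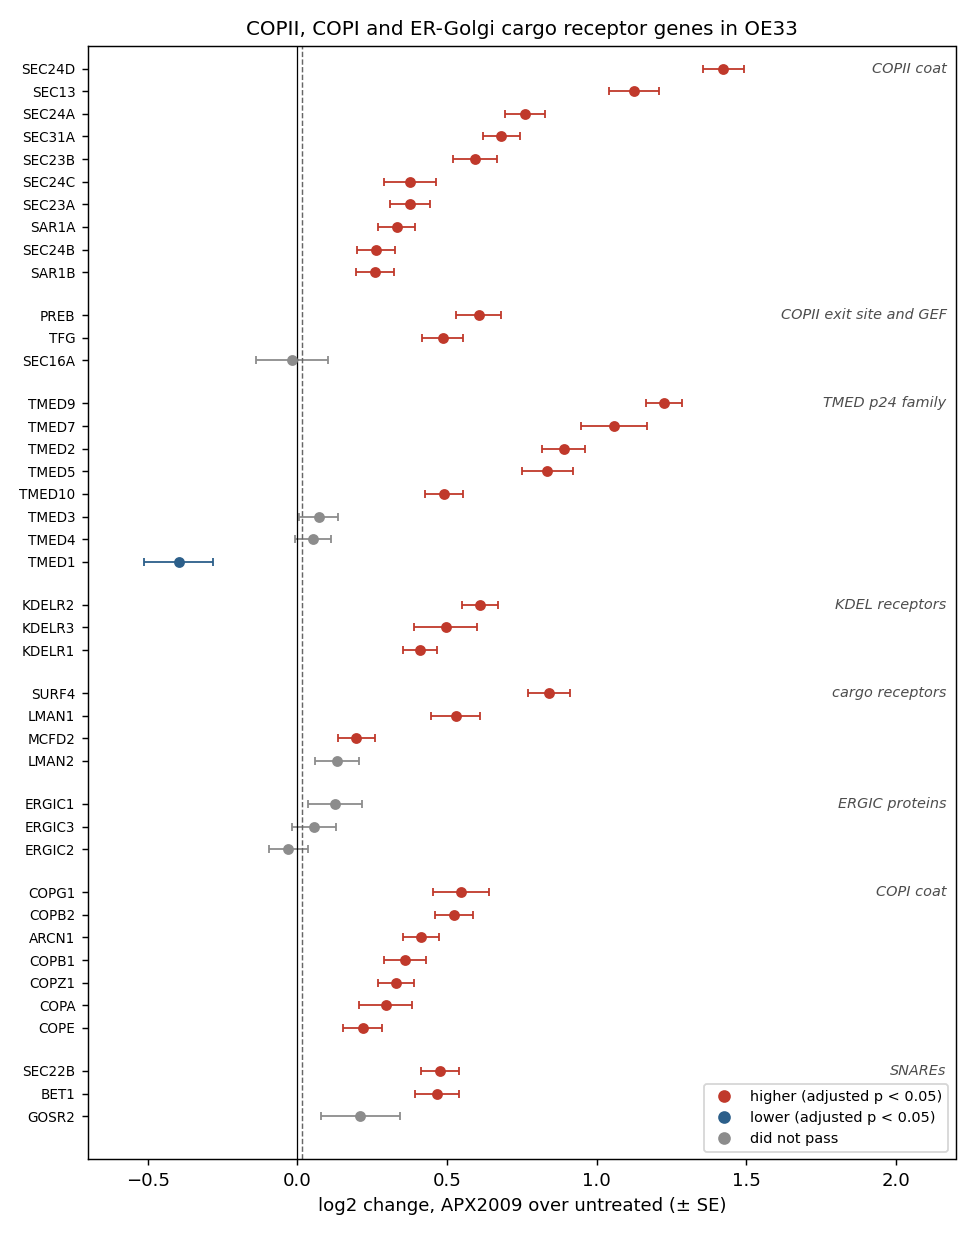
Log2 change of each of the 41 genes (APX2009 over untreated, horizontal axis) with its standard error, grouped by role; red points passed as higher, blue as lower and grey did not pass, and the dashed line is the median of all tested genes (0.02). Changes ran from -0.40 for TMED1 to 1.42 for SEC24D, and the COPII coat, COPI coat and KDEL receptor groups hold only red points.

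The libraries held 21158750 to 26111656 gene counts in the APX2009 group and 22443569 to 25093753 in the untreated group, and the lowest count of any of the 41 genes in any library was 171. Of 6 epithelial markers, 5 fell and EPCAM did not pass, with summed levels of 15147 to 18805 CPM in APX2009-treated and 27290.2 to 28011 CPM in untreated libraries; the part of that fall in the changes below was not tested. Of 16 fibroblast, leukocyte and endothelial markers, 13 did not reach the filter, and CD3E, a leukocyte marker, was at 0 counts in every library. The 3 that reached it were COL1A1, CD14 and LYZ, and none passed the test. COL1A1, a fibroblast marker, had 9.11 to 14.3 CPM in APX2009-treated and 8.35 to 12.6 CPM in untreated libraries. The leukocyte marker CD14 had 3.07 to 4.13 CPM in APX2009-treated and 3.98 to 4.26 CPM in untreated libraries. Summed levels in APX2009-treated and untreated libraries were 9.11 to 19.2 and 8.35 to 12.7 CPM for 6 fibroblast markers, 4.23 to 4.84 and 5.14 to 5.83 CPM for 6 leukocyte markers, and 0.0889 to 2.02 and 0.0445 to 0.402 CPM for 4 endothelial markers. The upper ends of the treated fibroblast and endothelial ranges both come from APX2009 replicate 1, which held 48 counts of COL3A1, 42 of DCN and 26 of COL1A2, genes at 0 counts in the other 5 libraries. It also held 36 counts of VWF and 10 of PECAM1, against 1 to 2 and 0 to 1 in the other treated libraries, and 1 to 8 and 0 in untreated libraries. Synthetic ERCC RNA made up 0.315%, 0.752% and 0.734% of the counts in APX2009 replicates 1, 2 and 3, against 0.48% to 0.564% in untreated libraries. APX2009 replicate 1 thus stands apart from the other treated libraries in both measures; without it, and with TMM scaling, all 32 rises were still called. Scaled by the ERCC total, none of the 41 passed (edgeR; 5 of them at an unadjusted p under 0.05, and no other tool was run with this scaling), with a median log2 change of 0.48 for the 41 and 0.08 for all genes. With ERCC scaling and APX2009 replicate 1 left out, the median of all genes was -0.48 and that of the 41 was -0.06, with 6 of the 32 rises still called and 6 genes called lower. The 41 genes thus lay 0.42 above the median of all genes with that scaling and 0.41 above it with the ERCC total over all 6 libraries, where TMM scaling gave 0.40. All changes below are relative to the other transcripts of the same cells, and in bulk RNA fewer expressing cells and less RNA per cell cannot be told apart.

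Start-site windows were available in a RefSeq table (GRCh38.p14) for 36 of the 41 genes, each 300 bases long, from 250 bases before a transcription start to 50 after it; SEC24D, TMED9, TMED4, KDELR2 and ERGIC1 had no entry. The windows were searched on both strands for letter patterns of the ER stress response. The core of the unfolded protein response element, which XBP1 and ATF6 are known to bind, was searched as TGACGTGG and stood in windows of 7 of the 36 genes (19.4%), compared with 1.05% of 15842 protein-coding genes in the table. The 7 were COPA, COPB1, COPB2, KDELR3, SEC16A, SEC23A and SEC24A. They are shown because they span both coats and a KDEL receptor, with 30 bases on either side where the window reaches that far, read along the gene's own strand, and with the pattern or its reverse complement CCACGTCA in capitals.
SEC24A: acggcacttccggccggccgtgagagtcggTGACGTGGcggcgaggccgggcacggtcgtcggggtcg
SEC23A: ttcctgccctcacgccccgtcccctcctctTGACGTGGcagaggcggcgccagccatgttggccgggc
SEC16A: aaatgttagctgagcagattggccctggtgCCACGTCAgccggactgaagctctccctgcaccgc
KDELR3: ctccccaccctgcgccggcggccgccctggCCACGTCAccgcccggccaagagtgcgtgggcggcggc
COPA: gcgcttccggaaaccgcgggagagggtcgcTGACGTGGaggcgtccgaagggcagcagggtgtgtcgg
COPB1: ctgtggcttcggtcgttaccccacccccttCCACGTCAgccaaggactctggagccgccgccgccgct
COPB2 upstream site: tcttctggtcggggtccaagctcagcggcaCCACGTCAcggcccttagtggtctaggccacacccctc
COPB2 start site: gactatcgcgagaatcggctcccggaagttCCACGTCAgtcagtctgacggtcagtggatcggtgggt
The stretches lie at chr5:134648576-134648643 for SEC24A and chr22:38468020-38468087 for KDELR3 on the forward strand. On the reverse strand they lie at chr14:39103202-39103269 for SEC23A, chr9:136484691-136484755 for SEC16A, chr1:160343208-160343275 for COPA, chr11:14499822-14499889 for COPB1, and chr3:139389806-139389873 and chr3:139389613-139389680 for COPB2. The SEC16A stretch lies outside its GENCODE 29 gene, which reaches 136483759. The SEC23A stretch lies within its GENCODE 29 gene, which reaches 39109646. The RefSeq starts of these genes thus differ from the outer ends of the GENCODE 29 genes. The shorter pattern ACGTGG, which is part of TGACGTGG, stood in windows of 21 of the 36 genes (58.3%), compared with 13.8% of the protein-coding genes. TGACGT, a CRE-like pattern that also overlaps TGACGTGG, stood in 13 (36.1%, compared with 11.7%). The full ER stress element, searched as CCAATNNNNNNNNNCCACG, was in none of the 36 and in 0.133% of the protein-coding genes. SEC13, the largest rise among genes with a window, has the 2 shorter patterns, shown in capitals in its window at chr3:10321063-10321362 on the reverse strand.
SEC13: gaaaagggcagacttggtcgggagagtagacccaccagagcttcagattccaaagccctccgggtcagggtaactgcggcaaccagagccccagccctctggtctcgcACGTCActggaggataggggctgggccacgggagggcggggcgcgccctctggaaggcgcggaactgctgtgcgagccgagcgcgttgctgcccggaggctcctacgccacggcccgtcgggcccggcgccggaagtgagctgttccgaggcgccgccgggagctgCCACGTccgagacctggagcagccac
Rises were found among genes with and without these patterns. Of the 7 genes with TGACGTGG, 6 rose, SEC16A being the exception, and their median log2 change was 0.38. Of the 29 without it, 23 rose, with a median of 0.41. For ACGTGG, 19 of the 21 genes with it and 10 of the 15 without it rose, with medians of 0.49 and 0.26. For TGACGT the medians lay the other way: 11 of the 13 genes with it and 18 of the 23 without it rose, with medians of 0.38 and 0.47. For GACGTG, another part of TGACGTGG, 14 of 18 genes with it and 15 of 18 without it rose, with medians of 0.37 and 0.48. Medians with and without the pattern were 0.38 and 0.41 for TGACGTG, 0.41 and 0.48 for CCACG, and 0.47 and 0.39 for CCAAT. These are matches of letters in a short window and do not show binding; no test was run on them. The protein-coding genes set beside them were not limited to genes that passed the filter on low counts, as all 41 did.

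All 10 listed COPII coat genes rose, SEC24D and SEC13 most. SEC24D, which codes for a cargo-binding SEC24 subunit (ENSG00000150961, chromosome 4, 118722823 to 118838683; all gene positions are on GRCh38, from GENCODE 29), had 82.5, 80.8 and 84.9 CPM in APX2009-treated cells, against 29.1, 33.0 and 30.4 CPM in untreated cells. CPM are counts scaled to the size of the library. The treated values lay close together and well above the untreated ones, a 2.68-fold higher level with a log2 change of 1.42 ± 0.07 (SE), at an adjusted p of 4.35e-07 in edgeR. SEC13, a cage subunit that also belongs to the nuclear pore (ENSG00000157020, chromosome 3, 10293131 to 10321178), had 51.7, 54.0 and 58.2 CPM in APX2009-treated cells, against 24.1, 27.7 and 23.2 CPM in untreated cells. The groups did not overlap, and the log2 change was 1.12 ± 0.08 (SE), at an adjusted p of 8.00e-06 in edgeR. SEC31A, its partner in the cage, had 111, 114 and 123 CPM in APX2009-treated cells, against 71.5, 72.9 and 71.9 CPM in untreated cells, a log2 change of 0.68. SEC24A rose by a log2 change of 0.76 and SEC23B, an inner-layer subunit, by 0.59. The smallest changes of the coat were in SEC24C and SEC23A (0.38 each), the GTPases SAR1A (0.33) and SAR1B (0.26), and SEC24B (0.26), all of which passed. Summed over the 10 genes, the level was 1009 ± 51.6 CPM in APX2009-treated cells and 681 ± 19.1 CPM in untreated cells (SD, n = 3 each). The exons of SEC24A and SAR1B overlap on opposite strands in the annotation, so their reads are hard to separate if strand was not used. SEC31A exons overlap those of THAP9-AS1 on the same strand, a gene at 21.0 CPM in APX2009-treated and 17.6 CPM in untreated cells. The effect of these reads was not tested.

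Genes that start COPII assembly split. PREB, the exchange factor that activates SAR1 (ENSG00000138073, chromosome 2, 27130756 to 27134675), had 67.9, 72.7 and 81.5 CPM in APX2009-treated cells, against 48.5, 49.0 and 48.3 CPM in untreated cells, and rose by a log2 change of 0.61 ± 0.07 (SE), at an adjusted p of 2.06e-04 in edgeR. TFG, which organises ER exit sites (ENSG00000114354, chromosome 3, 100709331 to 100748966), had 99.7, 101 and 109.7 CPM in APX2009-treated cells, against 73.0, 78.6 and 70.1 CPM in untreated cells, with a log2 change of 0.49 ± 0.07 (SE), at an adjusted p of 4.87e-04 in edgeR. Neither gene's groups overlapped. SEC16A, the scaffold of the exit site, had 194, 232 and 253 CPM in APX2009-treated cells, against 193, 259 and 235 CPM in untreated cells. Its groups overlapped with a wide spread in both, and the log2 change was -0.02 ± 0.12 (SE), at an adjusted p of 0.922 in edgeR.

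**Figure D2:**
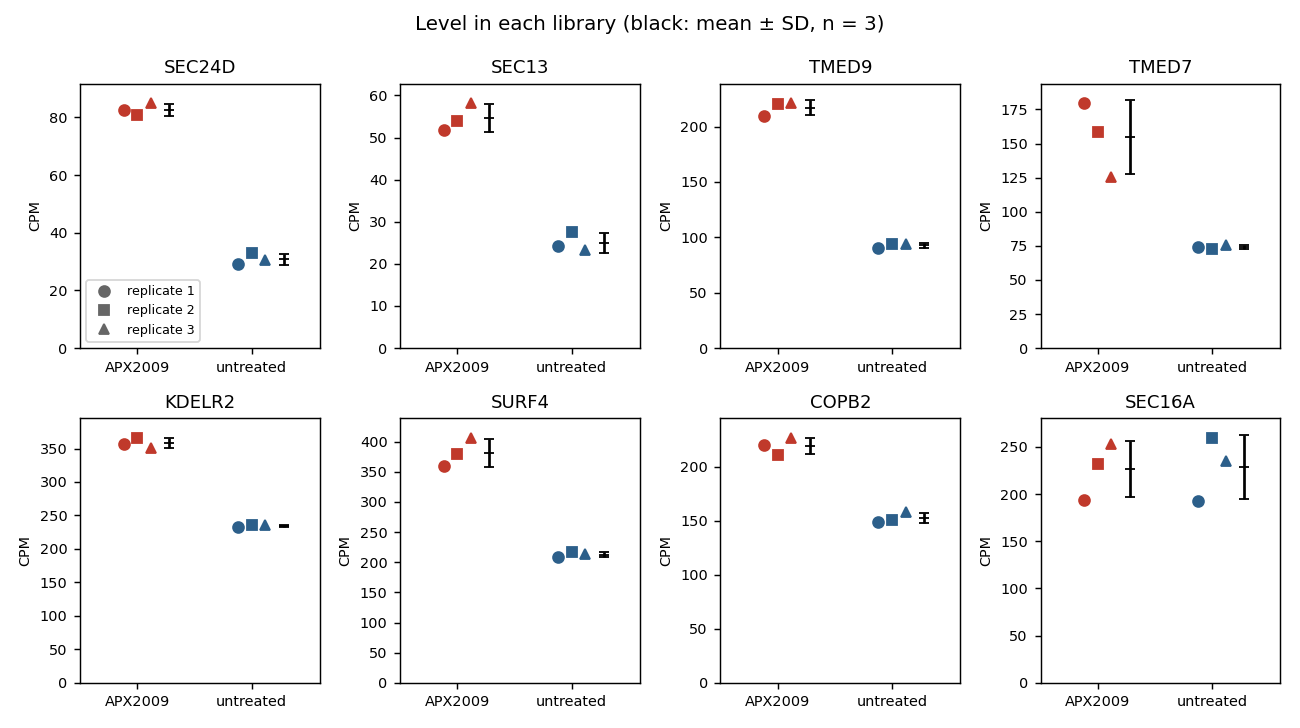
Level of 8 genes (CPM, vertical axis from 0) in each library, APX2009 on the left and untreated on the right of each panel; symbols mark the replicates and the black bar is the mean ± SD of 3 libraries. In 7 panels every APX2009 point lies above every untreated point; in the SEC16A panel the groups overlap.

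The TMED genes code for p24 proteins, membrane receptors that cycle between the ER and the Golgi and help load cargo such as lipid-anchored proteins. Of 8, 5 rose, TMED1 fell, and TMED3 and TMED4 did not pass. TMED9 (ENSG00000184840, chromosome 5, 177592158 to 177596124) had 209, 221 and 221 CPM in APX2009-treated cells, against 90.3, 94.2 and 93.7 CPM in untreated cells. That is a 2.34-fold higher level, with a log2 change of 1.23 ± 0.06 (SE), at an adjusted p of 6.00e-07 in edgeR, and with little spread in either group. TMED2 (ENSG00000086598, chromosome 12, 123584531 to 123598577) had 532, 487 and 464 CPM in APX2009-treated cells, against 261, 274 and 265 CPM in untreated cells, with a log2 change of 0.89 ± 0.07 (SE), at an adjusted p of 1.34e-05 in edgeR. TMED7 (ENSG00000134970, chromosome 5, 115613508 to 115632992) had 179.6, 159 and 126 CPM in APX2009-treated cells, against 74.3, 72.8 and 75.9 CPM in untreated cells. Its treated values were more spread than its untreated ones, without overlap, and its log2 change was 1.06 ± 0.11 (SE), at an adjusted p of 7.48e-05 in edgeR. TMED7 exons overlap those of TMED7-TICAM2 on the same strand, a gene at 1.61 CPM in APX2009-treated and 0.535 CPM in untreated cells. The effect of shared reads on the TMED7 value was not tested. TMED5 and TMED10 rose by log2 changes of 0.83 and 0.49. TMED3 and TMED4 had log2 changes of 0.07 and 0.05 with overlapping groups. TMED1 was the only fall among the 41, and was singled out after its value was seen. It had 7.68, 7.60 and 8.91 CPM in APX2009-treated cells, against 9.88, 10.6 and 11.3 CPM in untreated cells. Its groups did not overlap and its log2 change was -0.40 ± 0.12 (SE), at an adjusted p of 0.0240 in edgeR, but the call was lost without APX2009 replicate 2 and without untreated replicate 2 or 3. TMED1 was the least abundant of the 41 in CPM and its exons overlap those of DNM2 on the opposite strand, a gene at 167 CPM in APX2009-treated and 178 CPM in untreated cells. The part of these reads in the TMED1 value was not tested.

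KDEL receptors bind soluble ER proteins that have reached the Golgi and return them in COPI vesicles, and all 3 genes rose. KDELR2 (ENSG00000136240, chromosome 7, 6445953 to 6484242) had 357, 366 and 351 CPM in APX2009-treated cells, against 232, 236 and 236 CPM in untreated cells, with a log2 change of 0.61 ± 0.06 (SE), at an adjusted p of 5.07e-05 in edgeR. KDELR1 (ENSG00000105438, chromosome 19, 48382570 to 48391553) had 160.2, 157 and 161 CPM in APX2009-treated cells, against 117, 121 and 121 CPM in untreated cells, with a log2 change of 0.41 ± 0.06 (SE), at an adjusted p of 4.42e-04 in edgeR. The values of both genes were tight within groups and far apart between them. KDELR2 exons overlap those of DAGLB on the same strand, a gene at 42.9 CPM in APX2009-treated and 47.7 CPM in untreated cells. The effect of shared reads on the KDELR2 value was not tested. KDELR3 was much lower, with 13.7, 16.5 and 16.3 CPM in APX2009-treated cells, against 11.3, 11.1 and 10.5 CPM in untreated cells, and rose by a log2 change of 0.50 ± 0.11 (SE), at an adjusted p of 0.00489 in edgeR. KDELR3 exons overlap those of DDX17 on the opposite strand, a gene at 546 CPM in APX2009-treated and 463 CPM in untreated cells with a log2 change of 0.24; the part of such reads in the KDELR3 value was not tested. Per kb of exon, KDELR2 stood at 89.7 CPM per kb in APX2009-treated cells and 58.8 in untreated cells, KDELR1 at 70.8 CPM per kb in APX2009-treated cells and 53.2 in untreated cells and KDELR3 at 8.04 CPM per kb in APX2009-treated cells and 5.69 in untreated cells.

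Of the other cargo receptors, 3 of 4 rose. SURF4, a receptor for secreted soluble proteins such as lipoproteins (ENSG00000148248, chromosome 9, 133361449 to 133376166), had 359, 379 and 406 CPM in APX2009-treated cells, against 208, 217 and 213 CPM in untreated cells. It was the largest rise of these 4, 1.79-fold, with a log2 change of 0.84 ± 0.07 (SE), at an adjusted p of 1.44e-05 in edgeR. LMAN1, a lectin that carries glycoproteins including coagulation factors (ENSG00000074695, chromosome 18, 59327823 to 59359962), had 202, 184 and 169 CPM in APX2009-treated cells, against 119.6, 134 and 131 CPM in untreated cells, with a log2 change of 0.53 ± 0.08 (SE), at an adjusted p of 7.31e-04 in edgeR. MCFD2, the soluble partner with which LMAN1 forms that receptor, rose by a log2 change of only 0.20 ± 0.06 (SE), at an adjusted p of 0.0326 in edgeR, with 498 to 519 CPM in APX2009-treated and 444 to 446 CPM in untreated cells. The MCFD2 call was lost without a filter, without APX2009 replicate 3 and without any 1 of the untreated libraries; its exons overlap those of TTC7A on the opposite strand, a gene at 86.0 CPM in APX2009-treated and 118 CPM in untreated cells. LMAN2, another lectin of the early secretory route, did not pass, with a log2 change of 0.13 ± 0.07 (SE), at an adjusted p of 0.192 in edgeR. The ERGIC genes, whose products are membrane proteins cycling between the ER and the compartment before the Golgi, did not pass. ERGIC1 (ENSG00000113719, chromosome 5, 172834275 to 172952685) had 204, 239 and 262 CPM in APX2009-treated cells, against 209, 221 and 216 CPM in untreated cells, with a log2 change of 0.13 ± 0.09 (SE), at an adjusted p of 0.307 in edgeR. ERGIC3 (ENSG00000125991, chromosome 20, 35542021 to 35557634) had 177, 201 and 207 CPM in APX2009-treated cells, against 189.9, 187 and 185 CPM in untreated cells, with a log2 change of 0.06 ± 0.07 (SE), at an adjusted p of 0.591 in edgeR. ERGIC2 had a log2 change of -0.03, and all 3 had overlapping groups.

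The 7 listed coatomer genes of the COPI coat rose by similar, small amounts, with log2 changes from 0.22 for COPE to 0.55 for COPG1. COPB2, the beta-prime subunit (ENSG00000184432, chromosome 3, 139355600 to 139389732), had 219.8, 211 and 227 CPM in APX2009-treated cells, against 149, 150.3 and 158 CPM in untreated cells, with a log2 change of 0.52 ± 0.06 (SE), at an adjusted p of 1.73e-04 in edgeR. ARCN1, the delta subunit (ENSG00000095139, chromosome 11, 118572390 to 118603033), had 145, 146 and 157 CPM in APX2009-treated cells, against 111, 112 and 113 CPM in untreated cells, with a log2 change of 0.41 ± 0.06 (SE), at an adjusted p of 6.14e-04 in edgeR. In neither gene did the groups overlap. COPG1, the gamma subunit, had 222, 259.8 and 288 CPM in APX2009-treated cells, against 165, 180.1 and 181 CPM in untreated cells, with APX2009 replicate 1 nearest to the untreated libraries. COPB1, COPZ1 and COPA rose by log2 changes of 0.36, 0.33 and 0.30. The calls of COPA and COPE were the least stable: COPA was lost without any 1 library other than APX2009 replicate 1, and COPE without APX2009 replicate 2, without any 1 of the untreated libraries, and with DESeq2. Summed over the 7 genes, the level was 1457 ± 101 CPM in APX2009-treated cells and 1109 ± 41.3 CPM in untreated cells (SD, n = 3 each). Per kb of exon, the 7 ranged from 25.1 CPM for COPE to 58.0 for COPG1 in APX2009-treated cells, and from 18.7 for COPB2 to 39.7 for COPG1 in untreated cells. These values divide by the union of all annotated exons, and the order of the genes may depend on that length, which was not tested.

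SNARE proteins pair across membranes to fuse vesicles with their target, and 2 of 3 genes rose. SEC22B (ENSG00000265808, chromosome 1, 120150898 to 120176515) had 106, 96.9 and 101 CPM in APX2009-treated cells, against 73.2, 70.3 and 74.7 CPM in untreated cells, with a log2 change of 0.48 ± 0.06 (SE), at an adjusted p of 2.90e-04 in edgeR. BET1 (ENSG00000105829, chromosome 7, 93962762 to 94004382) had 77.4, 70.3 and 65.5 CPM in APX2009-treated cells, against 52.4, 51.2 and 50.8 CPM in untreated cells, with a log2 change of 0.47 ± 0.07 (SE), at an adjusted p of 7.70e-04 in edgeR. GOSR2 did not pass, with overlapping groups and a log2 change of 0.21 ± 0.13 (SE), at an adjusted p of 0.246 in edgeR. SEC22B has an annotated near-copy, SEC22B4P, and SAR1A, SEC13, SEC24A, TMED10, MCFD2 and BET1 have processed pseudogenes, so reads they share may be split or dropped. Exons of 23 of the 41 genes overlap another annotated gene, 19 of them on the opposite strand and 6 on the same strand. Of the 18 without any such overlap, 14 rose, beside 32 of all 41 genes and 17.2% of all genes tested. Whether shared reads affect the calls was not tested.

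Other genes of the same route changed in both directions. Of 71 listed from general knowledge, 68 were tested, of which 18 rose, 6 fell and 44 did not pass, beside 17.2% rising and 17.4% falling among all genes tested. Their median log2 change was 0.11. The rises with the smallest p were STX5, ARF4, USO1 and GORASP2. STX5, the SNARE that pairs with BET1, GOSR2 and SEC22B, had 69.0, 74.4 and 77.6 CPM in APX2009-treated cells, against 38.7, 39.3 and 40.7 CPM in untreated cells, with a log2 change of 0.90 ± 0.07 (SE), at an adjusted p of 7.64e-06 in edgeR. ARF4, a small GTPase of the family that recruits COPI, had 184, 180.4 and 179 CPM in APX2009-treated cells, against 108, 104 and 111 CPM in untreated cells, with a log2 change of 0.75 ± 0.06 (SE), at an adjusted p of 1.21e-05 in edgeR. In both genes the groups were far apart. The vesicle tether gene USO1 and the Golgi stacking gene GORASP2 rose by log2 changes of 0.61 and 0.56. The falls with the smallest p were COG5, a Golgi tether subunit (-0.39), TRAPPC6A, a subunit of the TRAPP tether (-0.59), YIF1A (-0.29), and COPG2, the second gamma coatomer gene (-0.38). COPG2 had 23.7, 26.2 and 27.1 CPM in APX2009-treated cells, against 30.7, 34.7 and 34.8 CPM in untreated cells, the opposite direction to its paralog COPG1, with a log2 change of -0.38 ± 0.08 (SE), at an adjusted p of 0.00570 in edgeR. COPZ2, the paralog of COPZ1, did not pass, with a log2 change of -0.52 ± 0.20 (SE), at an adjusted p of 0.0698 in edgeR. Its mean level was low, at 1.72 CPM in APX2009-treated and 2.45 CPM in untreated cells. By role, 2 of 7 tested exit site organisers, 2 of 11 other cargo receptors, 3 of 10 COPI paralogs and ARF cycle genes, 9 of 27 tethers and RAB genes, and 2 of 13 SNARE partners rose.

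**Figure D3:**
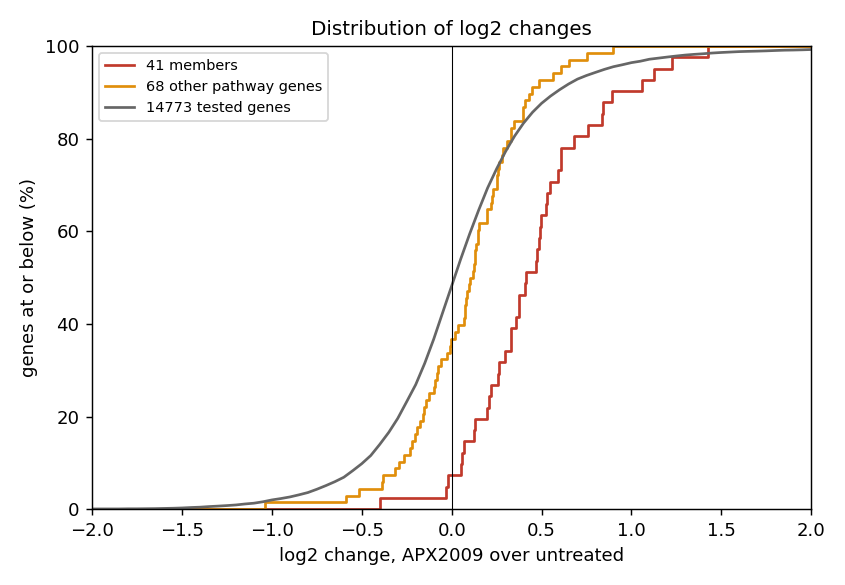
Cumulative percentage of genes (vertical axis) at or below each log2 change (APX2009 over untreated, horizontal axis) for the 41 genes, 68 other tested genes of the route and all 14773 tested genes. The curve of the 41 lies to the right over most of its range, with a median of 0.41, against 0.11 for the other route genes and 0.02 for all tested genes.

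Within gene families, the share of each paralog was computed from CPM per kb of exon, which removes library scaling. The length used is the union of annotated exons and need not be that of the expressed transcript, so the order of genes within a family may depend on it. A share can fall while the level of the gene itself does not, when other members rise more. SEC24B, SEC24C and KDELR1 lost share although they were called higher, and TMED4 lost share with a log2 change of 0.05. SEC24D held 14.8 ± 0.989% in APX2009-treated cells and 7.86 ± 0.288% in untreated cells of the SEC24 family (SD, n = 3 each), and SEC24C, with the highest share of the 4, held 57.9 ± 2.73% in APX2009-treated cells and 63.8 ± 0.174% in untreated cells. SEC24A held 12.0 ± 1.10% in APX2009-treated cells and 10.1 ± 0.24% in untreated cells, and SEC24B 15.3 ± 0.706% in APX2009-treated cells and 18.2 ± 0.563% in untreated cells. The treated and untreated values of these 4 shares did not overlap, and each gave p = 0.10 in a two-sided exact permutation test, the smallest that 3 against 3 libraries allow (adjusted p = 0.127 over the 19 shares tested). SEC23B held 93.5 ± 0.236% in APX2009-treated cells and 92.5 ± 0.311% in untreated cells of the SEC23 pair, again without overlap, and SAR1A 78.8 ± 0.4% in APX2009-treated cells and 77.9 ± 0.71% in untreated cells of the SAR1 pair, with overlap. Among KDEL receptors, KDELR2 held 53.2 ± 0.766% in APX2009-treated cells and 49.9 ± 0.155% in untreated cells and KDELR1 42.0 ± 0.849% in APX2009-treated cells and 45.2 ± 0.315% in untreated cells. TMED shares were taken over the 8 listed genes. TMED6 and TMED8 were left out, the latter at 4.90 CPM per kb in APX2009-treated and 3.96 in untreated cells. Of the 8, TMED9 held 22.9 ± 1.48% in APX2009-treated cells and 16.3 ± 0.268% in untreated cells and TMED4 11.1 ± 0.173% in APX2009-treated cells and 17.9 ± 0.622% in untreated cells. TMED2 was the largest in both groups at 33.2 ± 1.29% in APX2009-treated cells and 29.9 ± 0.493% in untreated cells. The shares of these 5 genes did not overlap between groups either. Shares within a family add up to the whole, so the 19 tests are not separate observations. In the SEC23 and SAR1 pairs both genes give the same test. None of the 19 differences can pass a threshold of 0.05 in this design, so they stand as descriptions.

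**Figure D4:**
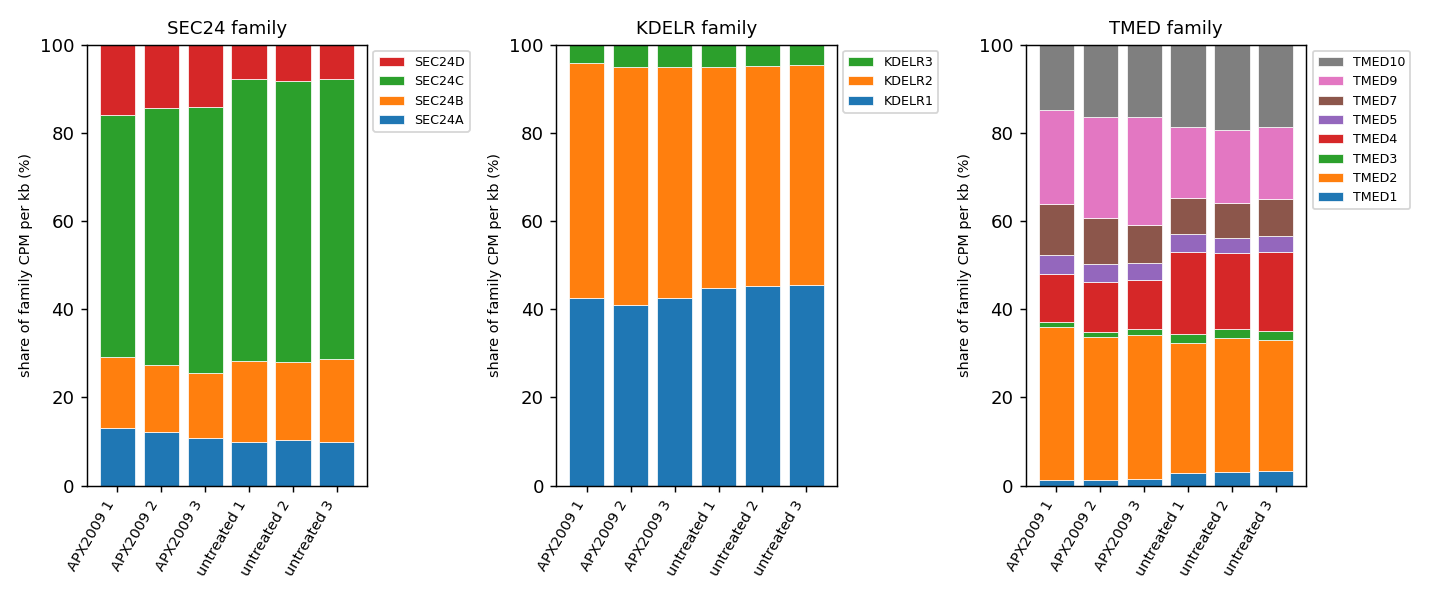
Share of each family's CPM per kb of exon (%, vertical axis, stacked to 100) held by each paralog in every library, with the APX2009 libraries on the left. The TMED family is limited to the 8 listed genes. The SEC24D band is 14.8% on average in APX2009-treated and 7.86% in untreated cells, and the TMED4 band 11.1% and 17.9%. A band can narrow while the level of its gene does not fall, and TMED4 itself did not pass the test.

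The treated libraries differed among themselves in a way that depended on the gene. Of the 32 genes that rose, APX2009 replicate 1 was the lowest treated library for 18, the highest for 9 and in the middle for 5. It was lowest for SEC24C, at 153 CPM beside 175 and 196 CPM in the other treated libraries, and highest for TMED7, TMED5, TMED2, LMAN1 and BET1. Without that library, ERGIC1, GOSR2 and LMAN2 also passed as higher, which gives 35 rises. In each of the 6 fits that left out 1 library, 29 of the 41 genes were called higher every time.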

How the data were processed

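The authors deposited raw whole-number counts per Ensembl gene and per ERCC transcript, 1 column per library; library names in the sample descriptions tied columns to samples. Per the submitters' processing notes, Trimmomatic 0.36, STAR 2.5.2b, featureCounts and Subread 1.5.2 were used on GRCh38; the sources used here do not give the annotation release or strand setting. Symbols, coordinates and exon lengths came from GENCODE 29, which matched 57447 of 58051 gene IDs. Library sizes and tests leave the ERCC rows out.

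After filterByExpr and TMM scaling, edgeR 4.0.16 (R 4.3.3) fitted treatment alone and tested it by quasi-likelihood, with Benjamini-Hochberg adjustment over all genes. CPM use the TMM-scaled library size; standard errors come from the F statistic. CPM per kb divides by the union of annotated exons. The step was tested on simulated data. The 41 genes and the lists were chosen with earlier results of these data known. Full values are given for the 2 genes of smallest p per role, for changed genes at a log2 change of 1 or more, and, among other route genes, the 4 of smallest p per direction are named; further genes, SEC31A, KDELR3, COPG1, MCFD2 and SEC16A among them, were chosen after their values were seen. In all, 10 letter patterns were counted in start-site windows, and not all of them are reported. Alternatives were RLE, total-count and ERCC scaling, no filter, each library left out, a replicate block, DESeq2 1.42.0, limma voom (3.58.1) and an adjusted p under 0.01. ERCC scaling without APX2009 replicate 1 was added after seeing the data. Figures were drawn with matplotlib 3.10.9.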

Additional observations from a re-analysis of the deposited data

How the results depend on the processing

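Beside 32 higher and 1 lower, RLE and total-count scaling, limma voom and the replicate block gave the same calls for all 41 genes; DESeq2 lost COPE and no filter lost MCFD2. At an adjusted p under 0.01, 28 were higher and 0 lower (edgeR; 1 lower at an unadjusted p under 0.05). Leaving out 1 library gave 29 to 35 higher and 0 to 1 lower genes. For the 68 other route genes, beside 18 higher and 6 lower, it gave 13 to 25 higher and 4 to 10 lower, the 10 lower ones without APX2009 replicate 1. With the ERCC total, 0 of the 41 and 0 of the 68 were called in either direction (edgeR; 5 and 0 at an unadjusted p under 0.05). With the ERCC total and without APX2009 replicate 1, 6 of the 41 were higher and 6 lower, and 1 of the 68 was higher and 44 lower. The cause was not tested. Genes near 0 turned sign: the SEC16A log2 change ran from -0.129 to 0.087 with 1 library left out, the ERGIC2 log2 change from -0.064 to 0.019, and ERGIC2 was at 0.058 with the ERCC total. The KDELR3 share differed by -0.20 to 0.20 percentage points with 1 library left out.

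Whether replicate numbers pair the libraries cannot be settled with so few libraries. Deviations of same-numbered libraries from their group means correlated at 0.14, 0.08 and 0.006 across 14773 genes. Those of differently numbered libraries correlated at -0.14 to 0.11, the highest being APX2009 replicate 3 with untreated replicate 2. With the replicate number as a block, 32 of the 41 were higher and 1 lower, and 20 of the 68 higher and 7 lower. The planned count over proteins with a C-terminal KDEL-type signal was not run, as no protein sequences were used here. Counts of 3 libraries per group limit the precision, and no difference between role groups was tested.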
